A study of Saccharomyces cerevisiae with 17 samples.

Results

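The genes described here are 55 Saccharomyces cerevisiae genes that the array's annotation lists by a systematic name only and whose mRNA was lower at day 14 than at day 2 of wine fermentation in both of the strains studied. They were chosen from the 499 such genes on the array, of which they make up 11%. The choice used the arrays of days 2 and 14. In each strain the mean of log2(intensity + 16) at day 14 had to lie at least 0.7 below that at day 2, and the day 2 mean had to reach 7, an intensity of 112. Of the 499, 3 were left out by name, and 0 of these met the thresholds. The same thresholds were met by 869 genes with a standard name, and by 924 of all 5449 genes measured, which is 17% of them.

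A systematic name in S. cerevisiae gives the chromosome, the arm, the order along it and the strand of a reading frame. A gene keeps it as its only name until a standard name is registered, often because its function is little studied, though for many of these genes sequence similarity or biochemistry points to a role. During growth in must, yeast spends much of its transcription on ribosomes, translation and biosynthesis. When nitrogen runs short and ethanol accumulates, the cells stop dividing, lower those transcripts and go on fermenting in stationary phase.

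VIN13 and BM45 are industrial wine yeasts, and both were grown with little air in must of the white grape Colombar. Total RNA was taken at day 2 (exponential phase), day 5 (early stationary phase) and day 14 (late stationary phase). VIN13 had 3 arrays at each day, and BM45 had 2 at day 2 and 3 at each later day, 17 in all. No mutation, transgene or added agent is named for either strain, and nothing in the labels says whether the replicates of a group were separate fermentations, so the p-values reflect the spread among these arrays, which may be technical.

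The median S. cerevisiae gene lay between 866.6 and 1150.4 intensity units over the 17 arrays, and the median Schizosaccharomyces pombe probe set on the same arrays between 3.1 and 9.1. A background bound of 100.7 was taken from the upper tail of the S. pombe signals, at the 95th percentile. On 4 arrays the ACT1 signal from the 3' end was high relative to the 5' end, a sign of RNA quality. In VIN13 these were replicate 1 of day 2 (5.55), replicate 3 of day 5 (2.86) and replicate 3 of day 14 (2.37), and in BM45 replicate 4 of day 2 (5.33), each the highest of its group. No fixed limit set them, and VIN13 day 2 replicate 3, at 3.003, is not among them. This ratio averaged 3.42 ± 1.96 at day 2, 2.07 ± 0.688 at day 5 and 1.97 ± 0.375 at day 14 in VIN13 (SD, n = 3 each). In BM45 it averaged 3.81 ± 2.15 at day 2 (SD, n = 2), 1.52 ± 0.087 at day 5 and 1.43 ± 0.033 at day 14 (SD, n = 3 each), so it moved with the day. Some values without the 4 arrays, or with the ratio as a covariate, are given below. Of 10 markers of haploid cells 4, 4 and 5 lay above the bound at days 2, 5 and 14 in VIN13 and 3, 5 and 7 in BM45. Their summed intensity ranged over the arrays of a day from 1509.4 to 1841.2, from 2057.9 to 2404.8 and from 2744.5 to 3382 in VIN13, and from 1812.6 to 1896.9, from 1554.3 to 1694.3 and from 4240.2 to 4386.8 in BM45. For 10 spore markers the numbers above the bound were 5, 6 and 6 in VIN13 and 4, 4 and 6 in BM45, with summed intensities of 6456.9 to 8984, 9646 to 10200.5 and 11422.3 to 12532.4 in VIN13, and of 7744.4 to 9549.2, 11002.3 to 12272.4 and 11325.8 to 11645.8 in BM45.

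All 55 genes had a mean over the 17 arrays above the bound. Their median intensity, each gene being averaged over a group's arrays, was 946.4 at day 2, 464.1 at day 5 and 358.4 at day 14 in VIN13. In BM45 it was 772.4 at day 2, 444.9 at day 5 and 244.5 at day 14. Single genes covered a wide range, from group means of 150.2 to 6021.8 at day 2 in VIN13 and of 163.2 to 9438.5 in BM45. On the log2 scale, on which group means are compared with the bound throughout, YAL037C-A averaged below it at day 5 in VIN13, and YGR266W and YHR213W-A did in BM45. At day 14 YAL037C-A, YGR054W, YML096W and YPL077C did so in VIN13, and YBR220C, YDR109C, YGR054W, YLL054C, YLR287C, YLR419W, YOL057W and YPL077C in BM45. In RNA from a whole culture, fewer cells holding a transcript and less of it per cell cannot be told apart.

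The difference between day 14 and day 2, which chose the genes and is therefore only described, had a median of -1.10 on the log2 scale in VIN13 and -1.73 in BM45. For the 869 standard-name genes under the same thresholds the medians were -1.06 and -1.70, and over all 5449 genes -0.06 and -0.24. In BM45 the difference was the larger one for 42 of the 55 genes (76.4%), as it was for 88.7% of those standard-name genes. Every day 14 array lay below every day 2 array for 55 genes in VIN13, where 35.8% of all genes were ordered so, and for 53 in BM45, where 50.4% were. The exceptions in BM45 were YPR071W and YPL077C, whose day 2 replicate 4 was low. Nearest inside the thresholds were YHR020W (-0.73 in VIN13, -1.22 in BM45), YPR071W (-0.86 and -0.73) and YHR213W-A (-2.53 and -0.74). Nearest outside were YDL211C (-0.69 and -1.49), YPL199C (-0.90 and -0.69) and YCR090C (-0.68 and -1.51). Without the 4 arrays of high ACT1 ratio 50 of the 55 genes still met the fall thresholds, and the medians were -1.12 in VIN13 and -1.87 in BM45. Those that missed them were YAL037C-A, YDR248C, YHR213W-A, YIL108W and YJL068C, and YHR213W-A then differed by only -0.38 in BM45. With the ratio as a covariate 50 of the 55 genes met the fall thresholds. YAL037C-A, YDR248C, YHR213W-A, YMR209C and YNL162W-A did not. YHR213W-A then differed by -0.13 in BM45 and YMR209C by -0.64 in VIN13.

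**Figure D1:**
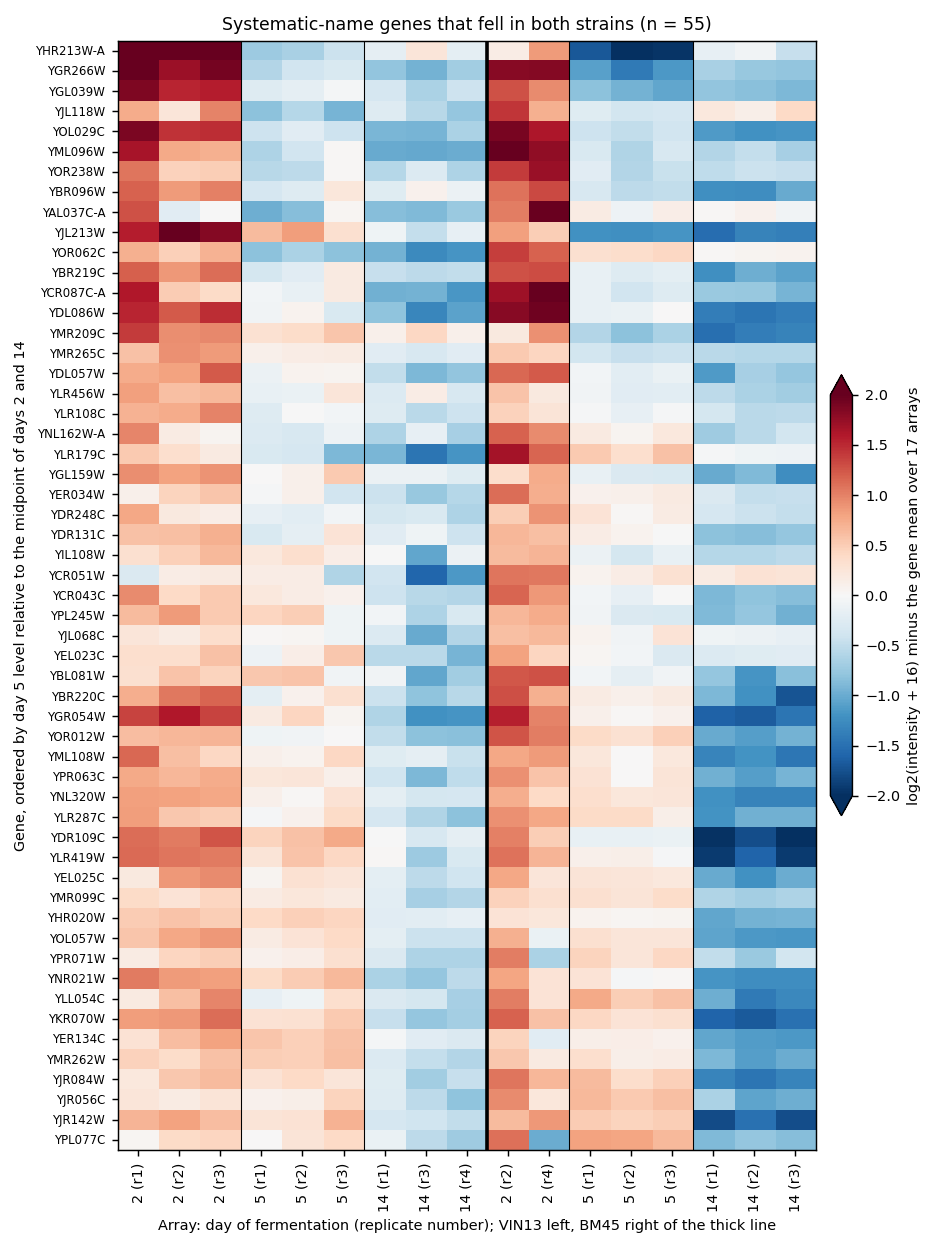
Each row is 1 of the 55 genes and each column 1 array, VIN13 left and BM45 right of the thick line, with the day and replicate number below; colour is log2(intensity + 16) minus the gene's mean over the 17 arrays. Day 2 columns are mostly red and day 14 columns mostly blue, which the choice of genes fixes, while the rows are ordered by the day 5 level: the genes at the top are already blue at day 5 and those at the bottom are not.

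**Figure D2:**
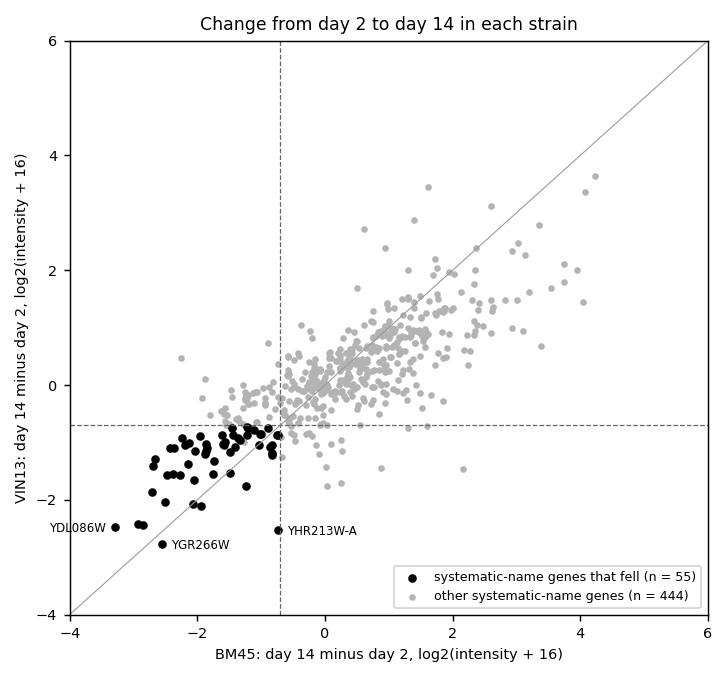
Each point is a systematic-name gene, with the difference of group means, day 14 minus day 2, in VIN13 on the vertical and in BM45 on the horizontal axis, both on the log2(intensity + 16) scale. The 55 chosen genes (black) lie by construction below and left of the dashed lines at -0.7, 42 of them above the diagonal of equal difference, and YHR213W-A stands apart with -2.53 in VIN13 and -0.74 in BM45.

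Day 5 was not used in the choice, so the strains could be compared there by a test. Values are differences of means on the log2(intensity + 16) scale, ± standard error of the fit, and calls were made where limma's adjusted p over all 5449 genes was under 0.05. At day 5 the level of 12 genes was higher in VIN13 than in BM45 and that of 3 was lower, 15 of 55 or 27.3%, while 25.2% of all genes were called. The share called was thus near that of the whole array. Higher calls were 21.8% of the 55 genes and 9.89% of all genes, and lower calls were 5.45% and 15.3%. Among the standard-name genes under the same thresholds 130 were higher and 39 lower of 869, 19.4% in all. The median difference was 0.05 for the 55 genes, 0.11 for those standard-name genes and -0.07 for all genes. At an unadjusted p under 0.05 the count was 21, beside 2022 of all 5449 genes, and 4 calls reached 2-fold, beside 215 of all genes. The arrays of the strains did not overlap for 14 of the 15 called genes, YPL245W being the exception. Over all 55 genes every VIN13 array lay above every BM45 array for 16, where 19.3% of all genes were so ordered, and below for 10, where 32.7% were. Of the 15 called genes 12 had the same sign of the strain difference at days 2, 5 and 14. Neither this count nor that of the 14 was made for the called genes of the whole array. Without the 4 arrays of high ACT1 ratio the median difference was -0.05, and the sign of the 15 did not change. That fit leaves 1 BM45 array at day 2, so its counts called are not given. With only the day 5 arrays in the fit 24 genes were called, 15 higher and 9 lower, beside 38.3% of all genes. The surplus of higher over lower calls was then smaller in proportion. The array's probes follow the reference genome, and how well they match the sequences of VIN13 and BM45 was not tested.

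**Figure D3:**
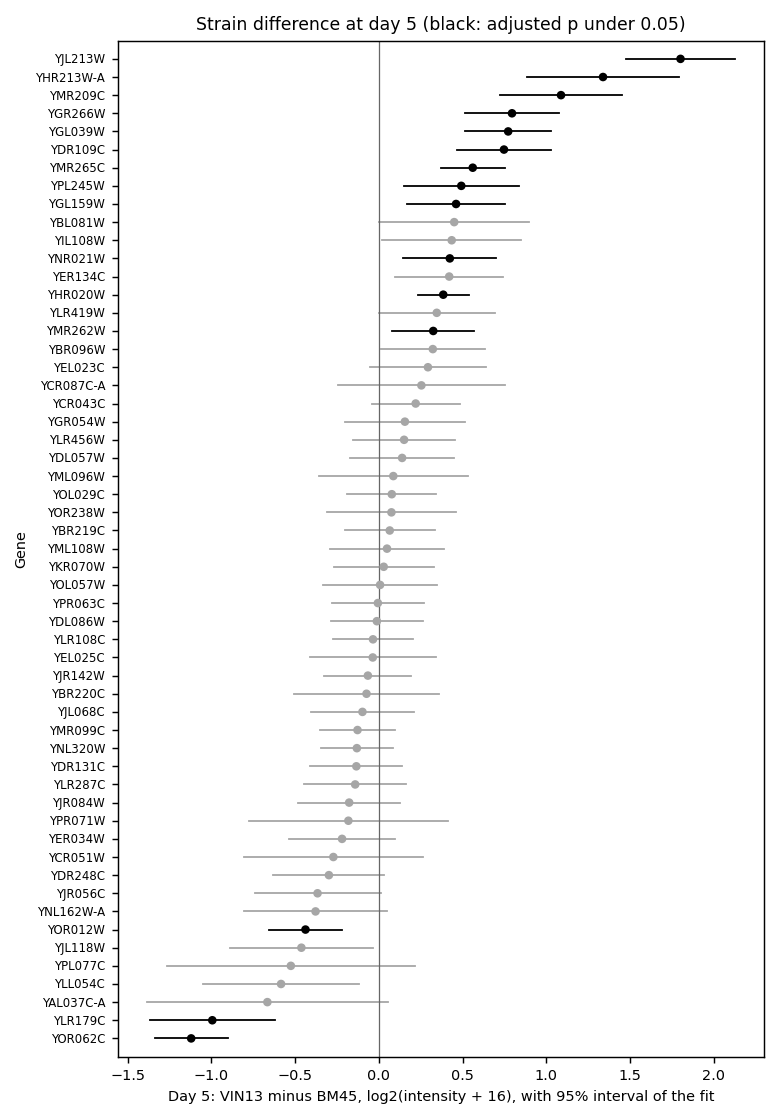
Each point is the difference between VIN13 and BM45 at day 5 for 1 of the 55 genes, on the log2(intensity + 16) scale, with the 95% interval of the fit (3 arrays per strain). Black points are the 15 genes at an adjusted p under 0.05, from YJL213W at 1.80 at the top to YOR062C at -1.12 at the bottom, and most of the grey intervals cross 0.

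How early a gene's level had changed was measured by its position at day 5, the day 5 mean minus the midpoint of the day 2 and day 14 means on the same log2 scale. A negative position means that the level at day 5 was nearer that of day 14, so that the larger part of the change lay before day 5. A positive one means that the larger part lay after it. Values below the background bound entered the position as measured. Raising a day 14 mean below the bound to it would lower the position, and raising such a day 5 mean would raise it. By how much was not computed. Among the called positions in BM45 the first applies to YDR109C, YLL054C, YLR287C, YLR419W, YOL057W and YPL077C, and the second to YGR266W and YHR213W-A. The noise of this measure has a correlation of 0 with the difference used in the choice in VIN13, and of 0.124 in BM45, where day 2 had 2 arrays. In VIN13 the position was called for 12 genes, 9 negative and 3 positive, which is 21.8% of the 55 beside 20.5% of all genes. In BM45 it was called for 34 genes, 14 negative and 20 positive, which is 61.8% beside 48.3% of all genes. By direction, negative positions made up 16.4% of the 55 genes in VIN13 and 25.5% in BM45, beside 11% and 21.6% of all genes, and positive ones 5.45% and 36.4%, beside 9.52% and 26.7%. Without the 4 arrays of high ACT1 ratio the median position in BM45 was -0.07, beside -0.05 with all arrays. That fit leaves 1 BM45 array at day 2, so its counts are not given. With the ACT1 ratio as a covariate 34 genes were called in BM45, 15 negative and 19 positive, beside 49.8% of all genes. Over the standard-name genes under the same thresholds 27.3% were called in VIN13 and 49.3% in BM45. The median gene among the 55 had covered 51.5% of its log2 difference by day 5 in VIN13 and 54.7% in BM45.

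In both strains 11 genes were called and in the same direction: 8 with a negative position and 3 with a positive one. A further 23 were called in BM45 but not in VIN13, 1 in VIN13 but not in BM45, and 20 in neither. These counts over both strains were not made for all genes, so they only describe the 55. The difference of position between the strains was itself called for 5 genes, 2 with a higher and 3 with a lower position in VIN13, which is 9.09% of the 55 beside 14.2% of all genes (6.39% higher, 7.78% lower). For the other genes the strains' positions were not shown to differ. The number depended on single arrays, as did the share of all genes called. Leaving out BM45 day 2 replicate 2 leaves that group 1 array, so only the median difference is given, -0.113 against -0.119. The number called was 11 (beside 23% of all genes) without VIN13 day 2 replicate 1 and 9 (beside 18%) without VIN13 day 5 replicate 3. It was 3 without any one of BM45 day 5 replicates 1, 2 and 3, BM45 day 14 replicates 2 and 3, and VIN13 day 5 replicate 2. The share of all genes called was then 7.12% to 11.1%. Without the 4 arrays of high ACT1 ratio the median position in VIN13 was -0.03, beside -0.02 with all arrays.

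**Figure D4:**
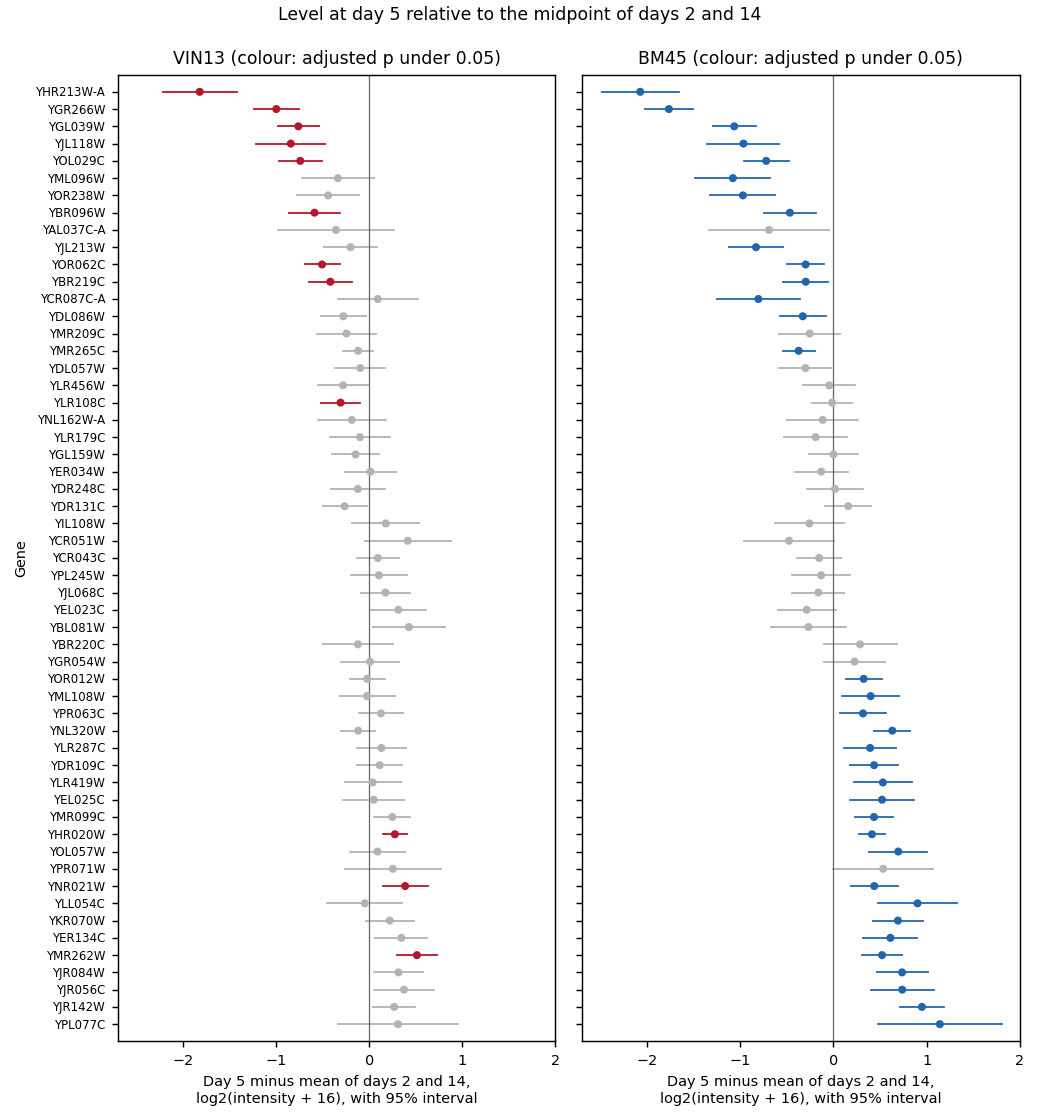
Points give the level at day 5 minus the mean of days 2 and 14 for each of the 55 genes, in VIN13 (left) and BM45 (right), on the log2(intensity + 16) scale with the 95% interval of the fit. Coloured points are called, 12 in VIN13 and 34 in BM45; YHR213W-A, YGR266W and YGL039W lie on the negative side in both strains, and most genes with a coloured positive value in the BM45 panel are grey in VIN13.

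Roles could be given for 29 of the 55 genes, and these are background knowledge, not results. The role groups were formed after values were seen, so counts within them are descriptions, to be set against the shares of all genes: 9.89% higher and 15.3% lower in VIN13 at day 5, 11% negative and 9.52% positive in position in VIN13, and 21.6% and 26.7% in BM45. Those of translation and nucleic acids numbered 5. YHR020W is a prolyl-tRNA synthetase, which charges tRNA with proline. YHR020W had intensities of 3154, 3300.1 and 3114 at day 2, 2935, 3071 and 2997 at day 5 and 1880.2, 1908 and 1974 at day 14 in VIN13. BM45 arrays gave 2666 and 2590.4 at day 2, 2321, 2269 and 2294 at day 5 and 1075, 1137 and 1159.5 at day 14. In each strain the day 5 arrays lay close to those of day 2 and well above those of day 14, and the position was positive, 0.28 ± 0.06 (adjusted p = 0.00603) in VIN13 and 0.41 ± 0.06 (adjusted p = 0.000125) in BM45. At day 5 VIN13 was above BM45 on all arrays, by 0.38 ± 0.07 (adjusted p = 0.0011). YMR262W, of the TatD nuclease family, kept a similar course. YMR262W showed intensities of 316, 295 and 344 at day 2, 322, 319.5 and 349.9 at day 5 and 182, 157 and 144 at day 14 in VIN13. BM45 arrays gave 333 and 257 at day 2, 287, 244 and 252 at day 5 and 112, 95.6 and 105 at day 14. Its VIN13 arrays at day 5 overlapped those of day 2, and the position was 0.51 ± 0.10 (adjusted p = 0.00262) in VIN13 and 0.52 ± 0.10 (adjusted p = 0.00083) in BM45. Its level at day 5 was higher in VIN13 by 0.32 ± 0.11 (adjusted p = 0.0493).

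YGR054W encodes eukaryotic translation initiation factor 2A, an alternative carrier of initiator tRNA. YGR054W gave intensities of 567, 678 and 571 at day 2, 245, 293 and 223 at day 5 and 135, 83.3 and 84.7 at day 14 in VIN13. BM45 arrays gave 661 and 438 at day 2, 229, 218 and 228 at day 5 and 58.3, 56.1 and 67.3 at day 14. At day 14 both strains lay below the background bound in their mean of log2(intensity + 16), so the level at day 2 was at least 4.88-fold that of day 14 in VIN13 and at least 4.75-fold in BM45, counting each dim array at no less than the bound. Its day 5 level was near the midpoint in both strains and was not called, with positions of 0.01 ± 0.15 (adjusted p = 0.971) in VIN13 and 0.23 ± 0.15 (adjusted p = 0.235) in BM45. YCR087C-A is a protein found in the nucleolus, where ribosomes are assembled. YCR087C-A had intensities of 1502, 698 and 639 at day 2, 467, 439 and 552 at day 5 and 242, 244 and 207 at day 14 in VIN13. BM45 arrays gave 1610.3 and 2147 at day 2, 438, 368 and 405 at day 5 and 284, 279 and 248 at day 14. VIN13 day 2 replicate 1, one of the arrays of high ACT1 ratio, was the highest of its group by a wide margin. The position was 0.09 ± 0.20 (adjusted p = 0.785), not called, in VIN13 and -0.81 ± 0.21 (adjusted p = 0.00574) in BM45. YLR419W, a putative RNA helicase of the DEAH family, had BM45 day 14 arrays of 59.3, 77.1 and 59.2, below the bound. Its BM45 day 2 arrays read 590.1 and 438, at least 4.49-fold higher. The position in BM45 was 0.53 ± 0.15 (adjusted p = 0.00819) with day 14 as measured, and would be lower with day 14 set to the bound.

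**Figure D5:**
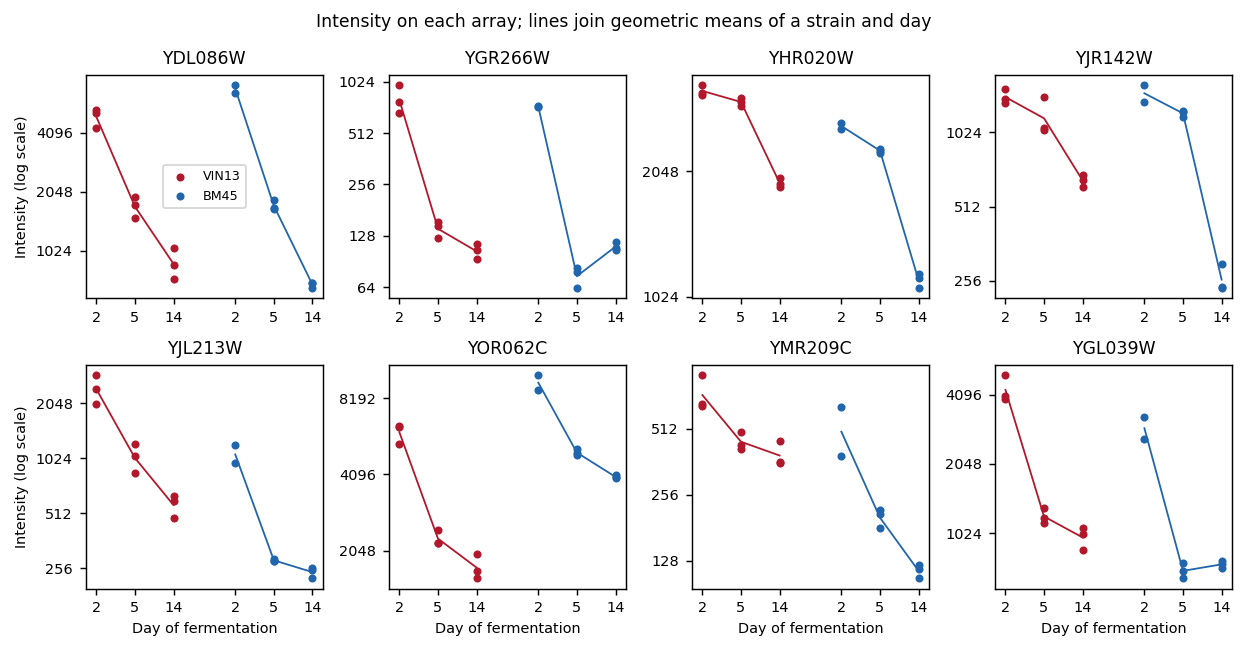
Points are the intensity on each array, on log scales that differ between panels, of 8 of the genes at days 2, 5 and 14, for VIN13 (left, red) and BM45 (right, blue). Lines join the geometric means of the intensities of each group. YGR266W and YGL039W have reached their lower level by day 5, YHR020W and YJR142W change mostly after day 5, and YOR062C is higher in BM45 at each day while YJL213W is higher in VIN13.

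Enzymes of small molecules were the largest group with a role, 13 genes. Of these 3 were higher in VIN13 at day 5 and 0 lower, and the position was negative for 1 in VIN13 and positive for 6 and negative for 3 in BM45. YGL039W is an aldehyde reductase that uses NADPH. YGL039W had intensities of 4999, 3916 and 4065 at day 2, 1134, 1186 and 1310.3 at day 5 and 1073, 864 and 1013 at day 14 in VIN13. BM45 arrays gave 3279 and 2615 at day 2, 759, 696 and 649.7 at day 5 and 775, 747 and 722 at day 14. Most of the difference was in place at day 5 in both strains, and in BM45 the day 5 and day 14 arrays overlapped. Its position was -0.76 ± 0.10 (adjusted p = 0.00022) in VIN13 and -1.07 ± 0.11 (adjusted p = 3.95e-06) in BM45, and at day 5 VIN13 was higher by 0.77 ± 0.12 (adjusted p = 0.000277). YDL086W, of the dienelactone hydrolase family, was among the brightest of the 55 at day 2. YDL086W had intensities of 5381, 4347 and 5203 at day 2, 1755, 1938 and 1505 at day 5 and 1053, 738 and 872 at day 14 in VIN13. BM45 arrays gave 6576 and 7220.0 at day 2, 1671, 1689 and 1860.2 at day 5 and 700.4, 660.0 and 704 at day 14. Its difference between day 14 and day 2, -2.47 in VIN13 and -3.29 in BM45, was the largest of the 55 averaged over the strains. The day 5 arrays of the strains overlapped, and the position was -0.28 ± 0.11 (adjusted p = 0.0947), not called, in VIN13 and -0.33 ± 0.12 (adjusted p = 0.0298) in BM45.

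YMR209C is a putative methyltransferase. YMR209C had intensities of 899, 648 and 662 at day 2, 414, 433 and 495 at day 5 and 359, 449 and 357 at day 14 in VIN13. BM45 arrays gave 383 and 642 at day 2, 217, 181 and 208 at day 5 and 106, 118 and 122 at day 14. On each day every VIN13 array lay above every BM45 array, though narrowly at day 2, and the strains differed by 1.09 ± 0.17 (adjusted p = 0.000277) at day 5. YDR109C belongs to the FGGY family of carbohydrate kinases. YDR109C had intensities of 667, 629.5 and 737 at day 2, 414, 457 and 521 at day 5 and 299.8, 238 and 264 at day 14 in VIN13. BM45 arrays gave 617 and 428 at day 2, 268, 268 and 271 at day 5 and 64, 76.7 and 62.9 at day 14. VIN13 was higher at day 5 by 0.75 ± 0.13 (adjusted p = 0.000761) with no overlap. In BM45 day 14 lay below the bound, at least 4.54-fold under day 2. The position there was 0.44 ± 0.12 (adjusted p = 0.00757) with day 14 as measured, and would be lower with day 14 set to the bound.

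YJR142W is a Nudix hydrolase, an enzyme class that cleaves nucleoside diphosphate derivatives. YJR142W gave intensities of 1395, 1525 and 1342 at day 2, 1046, 1064 and 1417 at day 5 and 686, 656 and 616 at day 14 in VIN13. BM45 arrays gave 1356 and 1592 at day 2, 1244, 1184 and 1229.7 at day 5 and 239, 299.5 and 243 at day 14. The BM45 arrays of day 5 were all below but close to those of day 2, and its day 14 arrays were the lowest of the 17. Its position was 0.27 ± 0.11 (adjusted p = 0.086), not called, in VIN13 and 0.95 ± 0.11 (adjusted p = 1.1e-05) in BM45, and VIN13 minus BM45 was -0.68 ± 0.15 (adjusted p = 0.0111). YNL320W, an alpha/beta hydrolase, had the same kind of strain difference. YNL320W showed intensities of 1681, 1663 and 1621 at day 2, 1010.0, 958 and 1158 at day 5 and 826, 736 and 748 at day 14 in VIN13. BM45 arrays gave 1575 and 1249 at day 2, 1198, 1104 and 1118 at day 5 and 400.2, 365 and 363 at day 14. It lay near the midpoint at day 5 in VIN13, -0.12 ± 0.09 (adjusted p = 0.364), and above it in BM45, 0.63 ± 0.09 (adjusted p = 6.84e-05), and VIN13 minus BM45 was -0.75 ± 0.13 (adjusted p = 0.00406).

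YML096W resembles asparagine synthetases. YML096W had intensities of 553, 292 and 282 at day 2, 103, 125 and 169 at day 5 and 74.4, 73.6 and 76.2 at day 14 in VIN13. BM45 arrays gave 752 and 606 at day 2, 131, 105 and 130.2 at day 5 and 106, 115 and 98.5 at day 14. VIN13 averaged below the bound at day 14, at least 3.2-fold under day 2. The position was -0.34 ± 0.18 (adjusted p = 0.205), not called, in VIN13 and -1.08 ± 0.19 (adjusted p = 0.000327) in BM45, where the day 5 and day 14 arrays overlapped. YMR099C, which interconverts the anomers of glucose 6-phosphate, was bright at each day. YMR099C had intensities of 3750.1, 3481 and 3904 at day 2, 3226, 3373 and 3251 at day 5 and 2477, 1820.2 and 1921 at day 14 in VIN13. BM45 arrays gave 3969 and 3604 at day 2, 3595, 3466 and 3707 at day 5 and 1905, 1796 and 1865 at day 14. Its position was 0.25 ± 0.09 (adjusted p = 0.0647), not called, in VIN13 and 0.44 ± 0.09 (adjusted p = 0.00161) in BM45. Positive positions in BM45 were also called for YER134C, a magnesium-dependent acid phosphatase (0.61), and YKR070W, similar to haloacid dehalogenases (0.69). No call in any of the tests was made for YDR248C, similar to gluconokinases, YJL068C, an S-formylglutathione hydrolase that takes part in formaldehyde removal, and YLR456W, similar to pyridoxamine phosphate oxidases.

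Of 4 genes of protein turnover 0 were called between the strains at day 5, and the position was called for 0 in VIN13 and for 2 in BM45, both positive. YJR084W associates with the COP9 signalosome, which removes the ubiquitin-like Rub1 from cullins. YJR084W had intensities of 366, 463 and 493 at day 2, 385, 419 and 375 at day 5 and 264, 187 and 222 at day 14 in VIN13. BM45 arrays gave 678 and 505 at day 2, 495, 407 and 440.5 at day 5 and 117, 103 and 116 at day 14. In BM45 its day 5 arrays all lay below day 2 and far above day 14, with a position of 0.74 ± 0.13 (adjusted p = 0.000323). YOL057W, a dipeptidyl peptidase, had a position of 0.70 ± 0.14 (adjusted p = 0.00125) in BM45, where its day 2 arrays read 379.6 and 205 and so lay on both sides of the 289, 273 and 272 of day 5. The F-box protein YDR131C, of a family that selects substrates for ubiquitin ligases, and YIL108W, a putative metalloprotease, were called in none of the tests.

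The 4 genes similar to regulators or binding proteins included both genes with the largest calls in the direction of BM45. YOR062C, similar to the protein phosphatase subunit Reg1 of glucose repression, was the brightest of the 55 at day 2. YOR062C had intensities of 6379, 5394 and 6292 at day 2, 2193, 2480.3 and 2194 at day 5 and 1995, 1593 and 1706 at day 14 in VIN13. BM45 arrays gave 10104 and 8773 at day 2, 4867, 4961 and 5142 at day 5 and 3947, 4012 and 4056 at day 14. Every BM45 array lay above every VIN13 array of the same day. At day 5 the strains differed by -1.12 ± 0.10 (adjusted p = 1.48e-06), and the position was negative in both, -0.51 ± 0.09 (adjusted p = 0.00146) in VIN13 and -0.30 ± 0.09 (adjusted p = 0.0151) in BM45. YLR179C resembles Tfs1, an inhibitor of carboxypeptidase Y. YLR179C had intensities of 3291, 2886 and 2581 at day 2, 1833, 1793 and 1219 at day 5 and 1203, 818 and 999.8 at day 14 in VIN13. BM45 arrays gave 7225 and 5139 at day 2, 3271, 2877 and 3422 at day 5 and 2239, 2148 and 2112 at day 14. Here too every BM45 array lay above every VIN13 array of its day. The strain difference at day 5 was -0.99 ± 0.17 (adjusted p = 0.000734), and its position was called in neither strain. YLL054C, a putative transcription factor of the zinc cluster kind, differed between the strains in the time of its change. YLL054C showed intensities of 283, 384 and 507 at day 2, 219.5, 234 and 318 at day 5 and 199.7, 191 and 152 at day 14 in VIN13. BM45 arrays gave 520.3 and 304 at day 2, 431, 358 and 381 at day 5 and 118, 83.2 and 92.8 at day 14. VIN13 had changed by about as much before as after day 5, with a position of -0.05 ± 0.19 (adjusted p = 0.891), whereas BM45 lay nearer its day 2 level, 0.90 ± 0.20 (adjusted p = 0.00175), and the strains' positions differed by -0.95 ± 0.27 (adjusted p = 0.0319). This difference lost its call when any one of 8 arrays was left out, with adjusted p between 0.0506 and 0.0958. YCR051W, an ankyrin repeat protein, was not called in any test, with a position of 0.41 ± 0.22 in VIN13 and -0.48 ± 0.23 in BM45.

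The 3 membrane proteins comprised YNR021W and YPR063C, found in the endoplasmic reticulum, and YBR220C, of the acetyl-CoA transporter family. YNR021W had intensities of 2039, 1781 and 1742 at day 2, 1283, 1404 and 1554 at day 5 and 626, 567 and 676 at day 14 in VIN13. BM45 arrays gave 1708 and 1191 at day 2, 1189, 968 and 994.8 at day 5 and 424, 403 and 405 at day 14. The position of YNR021W was 0.39 ± 0.11 (adjusted p = 0.0267) in VIN13 and 0.44 ± 0.12 (adjusted p = 0.00695) in BM45, and at day 5 it was higher in VIN13 by 0.42 ± 0.13 (adjusted p = 0.0269). The call for its position in VIN13 ended without any one of VIN13 day 5 replicates 2 and 3 and VIN13 day 14 replicate 3, with adjusted p between 0.0526 and 0.0966. YPR063C was called for its position in BM45, 0.32 ± 0.12 (adjusted p = 0.036). YBR220C was called in none of the tests.

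Of the 26 genes without a role 6 were higher and 1 lower in VIN13 at day 5, and the position was called negative for 7 and positive for 0 in VIN13, and negative for 9 and positive for 6 in BM45. YJL213W had the largest strain difference. YJL213W had intensities of 2032, 2919.8 and 2459 at day 2, 1054, 1216 and 845 at day 5 and 633, 483 and 599 at day 14 in VIN13. BM45 arrays gave 1202 and 958 at day 2, 282, 279.8 and 288 at day 5 and 226, 257 and 251 at day 14. VIN13 exceeded BM45 on all arrays of each day, at day 5 by 1.80 ± 0.15 (adjusted p = 7.04e-07). Its position was -0.20 ± 0.13 (adjusted p = 0.306), not called, in VIN13 and -0.83 ± 0.14 (adjusted p = 0.000214) in BM45, where the larger part of the change lay before day 5, and the strains' positions differed by 0.63 ± 0.19 (adjusted p = 0.0393). That last call ended when any one of 11 arrays was left out, with adjusted p between 0.0506 and 0.122. YHR213W-A came next. YHR213W-A had intensities of 3249.5, 2065 and 1996 at day 2, 242, 258 and 303 at day 5 and 363, 488 and 359 at day 14 in VIN13. BM45 arrays gave 459 and 759 at day 2, 117, 79.1 and 94 at day 5 and 364, 393 and 295 at day 14. In both strains day 5 was the lowest of the 3 days and no array of day 5 overlapped one of day 14, so its course was not a steady decline. Its position was -1.82 ± 0.19 (adjusted p = 2.28e-05) in VIN13 and -2.07 ± 0.19 (adjusted p = 1.92e-06) in BM45. VIN13 was higher at day 5 by 1.34 ± 0.21 (adjusted p = 0.000339), or at least 2.32-fold, as BM45 averaged below the bound.

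YGR266W changed early in both strains. YGR266W had intensities of 982, 672 and 776 at day 2, 124, 146 and 154 at day 5 and 106, 93 and 114 at day 14 in VIN13. BM45 arrays gave 726 and 735 at day 2, 82.7, 63.1 and 78.4 at day 5 and 118, 108 and 105 at day 14. BM45 was below the bound at day 5, where all its arrays lay under those of day 14, and the level at day 5 was at least 6.4-fold lower than at day 2. Its position was -0.997 ± 0.11 (adjusted p = 5.01e-05) in VIN13 and -1.77 ± 0.12 (adjusted p = 1.26e-07) in BM45, and the strains' positions differed by 0.77 ± 0.16 (adjusted p = 0.00902). With BM45 day 5 set to the bound this difference of position would be smaller. At day 5 VIN13 was higher by 0.80 ± 0.13 (adjusted p = 0.000452), or at least 1.34-fold. YJL118W was also lower at day 5 than at day 14 in BM45. YJL118W showed intensities of 390.2, 271 and 467 at day 2, 121, 147 and 111 at day 5 and 187, 148 and 126 at day 14 in VIN13. BM45 arrays gave 634 and 382 at day 2, 189.8, 173 and 175 at day 5 and 263, 246 and 304 at day 14. The position was -0.84 ± 0.17 (adjusted p = 0.00401) in VIN13, where days 5 and 14 overlapped, and -0.97 ± 0.18 (adjusted p = 0.000559) in BM45. YOL029C was early without such a return. YOL029C gave intensities of 2827, 2088 and 2120.1 at day 2, 561, 644 and 564 at day 5 and 393, 389.5 and 484 at day 14 in VIN13. BM45 arrays gave 2855 and 2355 at day 2, 563, 533 and 576 at day 5 and 337, 317 and 326 at day 14. Its arrays kept the order of the days without overlap in both strains, and its position was -0.74 ± 0.11 (adjusted p = 0.000386) in VIN13 and -0.72 ± 0.11 (adjusted p = 0.00013) in BM45.

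YBR096W was among the brightest of the 55 at day 2. YBR096W had intensities of 5091, 4057 and 4501 at day 2, 1757, 1869 and 2613 at day 5 and 1887, 2377 and 2054 at day 14 in VIN13. BM45 arrays gave 4759.6 and 5579 at day 2, 1782, 1547 and 1583 at day 5 and 946, 937 and 1101 at day 14. In VIN13 days 5 and 14 overlapped, and in BM45 they did not, and the position was -0.59 ± 0.13 (adjusted p = 0.00524) in VIN13 and -0.47 ± 0.13 (adjusted p = 0.00915) in BM45. YOR238W had intensities of 2349.8, 1541 and 1565 at day 2, 756, 773 and 1135 at day 5 and 748, 919 and 724 at day 14 in VIN13. BM45 arrays gave 2971 and 3733 at day 2, 954, 733 and 810.0 at day 5 and 783, 821 and 805 at day 14. Days 5 and 14 overlapped in both strains, and the position was -0.44 ± 0.16 (adjusted p = 0.0611), not called, in VIN13 and -0.97 ± 0.16 (adjusted p = 0.000248) in BM45. The other negative calls were YBR219C in both strains, -0.42 in VIN13 and -0.30 in BM45, YLR108C in VIN13 (-0.31) and YMR265C in BM45 (-0.37).

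Late change in BM45 was seen for YPL077C and YJR056C among the genes without a role. YPL077C had intensities of 124, 161 and 166 at day 2, 121, 147 and 162 at day 5 and 108, 78.1 and 66.5 at day 14 in VIN13. BM45 arrays gave 275 and 51.8 at day 2, 222, 219 and 195 at day 5 and 57.3, 63.6 and 58.7 at day 14. The BM45 day 2 arrays were far apart, and replicate 4, one of high ACT1 ratio, was lower than every later array of that strain. Its position in BM45 was 1.14 ± 0.31 (adjusted p = 0.00768), and without that array 0.62. YJR056C had intensities of 716 and 429.7 at day 2, 579.9, 532 and 561 at day 5 and 232, 169 and 178 at day 14 in BM45, with the day 2 arrays on both sides of day 5, and a position of 0.74 ± 0.16 (adjusted p = 0.0016). Positive positions in BM45 were also called for YOR012W (0.32), YML108W (0.40), YLR287C (0.39) and YEL025C (0.52).

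Smaller strain differences at day 5 were called for 4 more of these genes. YMR265C had intensities of 759, 789 and 798 in VIN13 and 544, 510.1 and 521 in BM45, without overlap, a difference of 0.56 ± 0.09 (adjusted p = 0.000328). YOR012W was lower in VIN13, with 399, 406 and 427 there and 559, 529.9 and 599 in BM45, a difference of -0.44 ± 0.10 (adjusted p = 0.00547). YGL159W had 523, 559 and 748 in VIN13 and 467, 419 and 416 in BM45, a difference of 0.46 ± 0.14 (adjusted p = 0.0226). For YPL245W the arrays overlapped, with 1097, 1146 and 759 in VIN13 and 774, 661 and 657 in BM45, a difference of 0.49 ± 0.16 (adjusted p = 0.0354). The low VIN13 array is replicate 3, of high ACT1 ratio, and leaving out any one of VIN13 day 5 replicates 1 and 2 or BM45 day 5 replicates 2 and 3 ended this call, with adjusted p between 0.108 and 0.147.

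The remaining 8 genes without a role were called in none of the tests: YAL037C-A, YBL081W, YCR043C, YDL057W, YEL023C, YER034W, YNL162W-A and YPR071W. YAL037C-A had intensities of 311, 100.2 and 119 at day 2, 53.3, 59.1 and 123 at day 5 and 59.3, 57.8 and 64.9 at day 14 in VIN13. BM45 arrays gave 261 and 519 at day 2, 136, 111 and 134 at day 5 and 123, 128 and 114 at day 14. Its VIN13 arrays varied widely within days 2 and 5, and day 5 replicate 3, of high ACT1 ratio, lay above 2 of the day 2 arrays. YBL081W had intensities of 310.0, 317 and 197 at day 5 in VIN13 and 200.3, 181 and 196 in BM45, so the lowest VIN13 array, replicate 3 of high ACT1 ratio, lay among those of BM45, and the difference of 0.45 ± 0.21 (adjusted p = 0.132) was not called. YCR043C was the brightest of the 8 at day 2, and its difference between the strains at day 5 was 0.22 ± 0.12 (adjusted p = 0.212).

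Along the chromosomes the genes were scattered. Only YBR219C and YBR220C are next to each other, and these reading frames overlap in the RefSeq annotation. The genes directly beside the 55, the 55 themselves left out, numbered 97 among those measured, and 26 of these, 26.8%, met the same thresholds, beside 17% of all genes. This is a description without a test. Among them were ERG12, the mevalonate kinase of sterol synthesis, beside YMR209C (-2.55 in VIN13, -3.75 in BM45), DED81, the asparaginyl-tRNA synthetase, beside YHR020W (-1.36 and -1.71), and SAM1, an S-adenosylmethionine synthetase, beside YLR179C (-1.59 and -1.23).

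Standard-name genes of 5 groups linked to growth were set beside the 55. The lists hold standard names only, so none of the 55 could appear in them. By role YHR020W and YGR054W belong with the tRNA synthetases and translation factors. Of 137 ribosome assembly genes 2 were higher and 11 lower in VIN13 at day 5, with CIC1, an assembly factor of the large subunit, at -2.04 ± 0.23 (adjusted p = 1.33e-05). Their position was negative for 9 and positive for 1 in VIN13 and negative for 56 and positive for 7 in BM45, with medians of -0.06 and -0.23. For listed genes that were not lower at day 14, a position says only on which side of the midpoint day 5 lay. The medians of the 55 genes were -0.02 and -0.05, and those of all genes 0.00 and 0.06. Of 50 measured genes of tRNA synthetases and translation factors 14 were higher and 1 lower in VIN13 at day 5, with the lysyl-tRNA synthetase KRS1 at 0.80 ± 0.13 (adjusted p = 0.000467). Their position was positive for 6 and negative for 3 in VIN13, and positive for 12 and negative for 11 in BM45. SES1, the seryl-tRNA synthetase, had a positive position in both strains as YHR020W had, 0.67 ± 0.09 (adjusted p = 0.000202) in VIN13 and 0.89 ± 0.09 (adjusted p = 5.63e-06) in BM45. KRS1 went the other way in BM45, at -1.23 ± 0.12 (adjusted p = 3.09e-06), so the synthetases did not share 1 course.

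Of 26 ergosterol genes 8 were higher and 1 lower in VIN13 at day 5, HMG1, a rate-limiting reductase of the pathway, by 1.30 ± 0.13 (adjusted p = 2.8e-06). Their position was negative for 12 and positive for 0 in VIN13, and negative for 6 and positive for 5 in BM45. Of 28 iron uptake genes 6 were higher and 5 lower in VIN13 at day 5, with the siderophore transporter ENB1 at 2.24 ± 0.13 (adjusted p = 1.08e-08), and their position was negative for 6 and positive for 1 in VIN13 and negative for 10 and positive for 3 in BM45. Of 23 genes of daughter cells and cell wall remodelling 3 were higher and 0 lower in VIN13 at day 5. Their position was positive for 13 and negative for 0 in VIN13, and positive for 12 and negative for 1 in BM45, with the glucanase-like DSE2 at 2.65 ± 0.34 (adjusted p = 0.000144) in VIN13 and 2.57 ± 0.35 (adjusted p = 4.68e-05) in BM45. The difference of position between the strains, VIN13 minus BM45, was positive for 11 and negative for 0 of the ribosome assembly genes, 6 and 1 of the translation genes, 1 and 6 of the ergosterol genes, 3 and 0 of the iron genes and 1 and 0 of the cell wall genes.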

How the data were processed

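Total RNA from VIN13 and BM45 at days 2, 5 and 14 was hybridised to Affymetrix yeast arrays. The authors deposited linear intensity values, 1 per probe set and array, made with Affymetrix Expression Console per the submitters' processing notes. How it was run, and in which version, is not given in the sources used. The number of arrays limits the precision of each value.

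From these, log2(intensity + 16) was computed. Nothing was normalized further, and dim genes were kept. Probe sets were assigned to genes through the array annotation and the RefSeq gene table, which gave 5449 genes, the brightest probe set being used for 47 genes with several. All 55 genes matched RefSeq, 1 had more than 1 probe set and 1, YBR219C, lay on a probe set that the design shares between sequences. The gene with more than 1 probe set no longer met the rule when its probe sets were averaged, which left 54. The median differences between day 14 and day 2 over the 55 were then -1.09 in VIN13 and -1.61 in BM45. The values given for that gene are those of its brightest probe set alone. A model with 1 mean per group was fitted to 17 arrays in limma (version 3.58.1, R 4.3.3; lmFit, then eBayes), tests being two-sided with Benjamini-Hochberg adjustment over 5449 genes. It was tested on simulated data. The tested contrasts were VIN13 minus BM45 at day 5, the day 5 level minus the midpoint of days 2 and 14 in each strain, and the strain difference of that position. A fold against a group below the bound of 100.7 is a lower limit, each dim array being set to no less than the bound. Figures were made with matplotlib 3.10.9.

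The 55 genes, the lists and the markers were chosen with earlier results of these data known, and the grouping by role was made after values were seen. Genes named singly were up to 8 by strain difference at day 5, 5 by position and 3 by difference of position in each direction among those called, the 6 of largest change and the 6 brightest at day 2, the 3 nearest each side of the threshold, those with a role, and chromosomal neighbours. Some others without a call, and those whose single calls complete a count, were named after their values were seen. Alternatives were another pseudocount, scaling, probe set choice, fit or threshold, RNA quality, and each array left out. Promoter and protein sequences were not analysed here. Replicate numbers were checked for pairing and were not taken to pair the samples.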

Additional observations from a re-analysis of the deposited data

Results flagged for a closer look

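The position at day 5 relative to the midpoint of days 2 and 14 differed between the strains, by the test of the difference itself, for 5 of the 55 genes (limma, adjusted p over 5449 genes). VIN13 minus BM45 was 0.77 for YGR266W and 0.63 for YJL213W, so the position was the lower one in BM45. At day 5 YGR266W in BM45 lay below its own day 14 level, but its day 5 mean was below the background bound and its day 14 mean just above it. This dip thus lies within or near the background. Setting the day 5 mean to the bound would raise the BM45 position and make the difference for YGR266W smaller. By how much was not computed. VIN13 minus BM45 was -0.95 for YLL054C, -0.75 for YNL320W and -0.68 for YJR142W, so the position was the lower one in VIN13. The call of YLL054C ended without any one of all 3 BM45 day 5 arrays, VIN13 day 5 replicates 1 and 2, BM45 day 14 replicates 2 and 3, and BM45 day 2 replicate 4 (adjusted p between 0.0506 and 0.0958). The call of YJL213W ended without any one of those arrays of days 5 and 14, of VIN13 day 14 replicates 3 and 4, of BM45 day 2 replicate 2 and of VIN13 day 2 replicate 3 (adjusted p between 0.0506 and 0.122). That of YGR266W ended under quantile normalization (adjusted p = 0.0837), and what sets the strains apart was not tested.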

How the results depend on the processing

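Over the alternatives, no value of a named gene turned its direction: 34 such values had 1127 values under alternatives, of which 1065 stayed on the same side of the threshold and 62 did not. Many of these could not turn. Leaving out an array of a group that a contrast does not use keeps its estimate, and the stricter thresholds reuse the main estimates. The totals are thus a description and no measure of robustness. The 15 genes called between strains at day 5 became 34 (20 higher, 14 lower) with arrayWeights, whose fit stopped before it converged, 24 (15 and 9) with only the arrays compared, 28 (17 and 11) without the 4 arrays of high ACT1 ratio, 29 (17 and 12) without these and VIN13 day 2 replicate 3, and 4 at 2-fold or more; leaving out 1 array gave 11 to 18. The 12 called for position in VIN13 became 32, 23, 22 and 1 with arrayWeights, without the 4 and the 5 arrays and at 2-fold or more, and 9 to 15 with 1 array left out. The 34 in BM45 (14 negative, 20 positive) stood beside 48.3% of all genes. They became 33 (10 and 23, beside 51.1%) with a midpoint weighted for the 2 arrays of day 2. At 2-fold or more they were 5, beside 5.3%. Leaving out 1 array of a group of 3 gave 27 to 35, beside 37.8% to 52.5%. The median position in BM45 was -0.07 without the 4 or the 5 arrays, against -0.05. The 5 whose position differed between strains stood beside 14.2% of all genes. They became 13 (beside 16.1%) with quantile normalization, 10 (beside 18%) with median centring and 20 (beside 32.7%) with arrayWeights. With the ACT1 covariate they were 15, beside 24.9%, and with all probe sets 3, beside 4.58% of those. They were 2 (beside 3.95%) at an adjusted p under 0.01 and 0 (beside 1.27%) at 2-fold or more. Leaving out 1 array of a group of 3 gave 3 to 11, beside 7.12% to 23%. The median difference was -0.115 without the 4 and -0.108 without the 5 arrays, against -0.119. Except where the construction shows it (a stricter threshold, fewer samples), the cause was not tested. Centring also moved the split of directions: 25% of calls for position in VIN13 were positive, against 43.8% with median centring and 35.7% with quantile normalization, and for the strain difference of position 40% against 60% with median centring. It moved the median of all genes between day 14 and day 2 to 0.01 in VIN13 and 0.09 in BM45. The 55 genes numbered 33 with a fall threshold of -1, 77 with -0.5, 41 with median centring, 48 with quantile normalization and 52 to 58 with 1 array left out. The ACT1 covariate for the choice and the omission of 5 arrays were added after seeing the data, and left 50 and 49 of the 55. Omitting 4 or 5 arrays leaves day 2 with 1 array in BM45 or in both strains, which is assumed to vary like the other groups. Counts called are therefore not given for those fits. With all probe sets in the fit the calls of YPL245W (adjusted p = 0.0651) and of the VIN13 position of YNR021W (0.0551) ended, and that of YNR021W also with the block (0.0528).

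Samples with the same replicate number did not vary together throughout, so the numbers were not taken to pair them: over 31 pairs the correlation of deviations had a median of 0.02 and ran between -0.375 and 0.644, with 15 above 0.1. For replicate 2 all 10 pairs were above 0 and 9 above 0.1, with a median of 0.381, against medians of -0.063 for replicate 1 and -0.034 for replicate 3. With replicate number as a block, 17 genes were called between strains at day 5, beside 28% of all genes. For position 10 were called in VIN13 and 31 in BM45, beside 20.2% and 47.3%. For the difference of position 8 were called, beside 16.1%. The planned count of promoter motifs was not run, as promoter sequences were not used here. Levels near the bound of 100.7 give only limits of a fold.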
